A study of Mus musculus with 55 samples.

Results

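The genes described here are the 6 members of the mouse Ces1 carboxylesterase cluster that were expressed in liver: Ces1b, Ces1c, Ces1d, Ces1e, Ces1f and Ces1g. They were taken by gene symbol from the 37620 genes of the deposited tables, and all 6 symbols were found. Livers of 55 male mice from 29 Collaborative Cross lines, coded IL followed by a number, were profiled by RNA sequencing. The Collaborative Cross consists of recombinant inbred lines derived by crossing founder strains of several subspecies, and its purpose in the study was to show how far inherited variation changes the expression of drug disposition genes. Each line is a group, with 1 mouse in 8 lines, 2 mice in 16 lines and 3 mice in 5 lines, so that 47 mice in 21 lines allow a spread within a line to be estimated. All mice were naive and untreated, came from the Tel-Aviv University colony, and were 8 to 11.9 weeks old (median 9.1) with body weights of 12.8 to 38 g (median 23). The lines had reached different generations of inbreeding, and founder alleles were not used here.

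Carboxylesterases hydrolyse ester and amide bonds, which activates or clears many ester drugs and also releases fatty acids from stored lipid. The mouse carries a tandem array of Ces1 genes that arose by duplication, and liver is a main site of their expression. Most of the enzymes lie in the lumen of the endoplasmic reticulum, held there by a short signal at the end of the protein, while a member without that signal can be secreted into blood. Ces1c encodes the plasma esterase. Ces1d encodes triacylglycerol hydrolase, which releases lipid for the assembly of very low density lipoprotein. Ces1f encodes an enzyme also known as triacylglycerol hydrolase 2. Ces1e encodes egasyn, which anchors part of the cell's beta-glucuronidase, the product of Gusb, in the endoplasmic reticulum. Ces1g encodes a microsomal carboxylesterase that acts on lipids and drugs.

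The 6 genes lay side by side on the minus strand of chromosome 8 in the mm9 genome (NCBI build 37), between 95580626 and 95861207, a stretch of 281 kb. Ces1b occupied 95580626 to 95603916, Ces1c 95622914 to 95655182 and Ces1d 95689967 to 95721737. Ces1e occupied 95725117 to 95753518, Ces1f 95780135 to 95803646 and Ces1g 95826268 to 95861207. The most used isoform had 13 exons in Ces1c and 14 exons in the others. The distance between neighbours ran from 3.38 kb (Ces1d to Ces1e) to 34.8 kb (Ces1c to Ces1d). Ces1a and Ces1h flank the array and were close to silent: Ces1a reached at most 0.83 FPKM (fragments scaled by exon length and library size) in a mouse and Ces1h at most 0.35 FPKM.

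The coding sequences show what the members share and where they part. The stretch around the catalytic serine is shown first because it is the part that makes each gene an esterase. Each is 45 coding bases of the most used isoform, 5′ to 3′, and the capitals mark the serine codon with the 2 codons on either side of it, the signature of serine hydrolases.
Ces1b: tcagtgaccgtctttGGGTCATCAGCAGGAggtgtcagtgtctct
Ces1c: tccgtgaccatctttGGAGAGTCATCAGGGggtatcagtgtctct
Ces1d: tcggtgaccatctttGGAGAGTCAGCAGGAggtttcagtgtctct
Ces1e: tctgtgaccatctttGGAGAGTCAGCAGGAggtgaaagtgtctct
Ces1f: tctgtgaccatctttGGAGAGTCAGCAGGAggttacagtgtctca
Ces1g: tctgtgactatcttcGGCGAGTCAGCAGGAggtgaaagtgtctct

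The serine codon was codon 222 in Ces1e and codon 221 in the other members. Any pair of these stretches differed at 3 to 10 of 45 bases. The last 30 coding bases are shown next because they separate the members by where the protein is held. The capitals mark the last 4 sense codons, before the stop codon.
Ces1b: gaccctactgagcacAGAGAACACAAAtga
Ces1c: gaccctactgaacacACAGAACACAAAtga
Ces1d: ccatcccacagggaaCATGTTGAGCTCtga
Ces1e: caactgccgacagaaCACACTGAGCTGtga
Ces1f: caaccccagccatacCACAATGAGCTGtga
Ces1g: tcatcccatagggaaCATGTTGAACTGtga

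The capitals encode an endoplasmic reticulum retention signal in Ces1d, Ces1e, Ces1f and Ces1g and do not in Ces1b and Ces1c. The tails of Ces1b and Ces1c differed from each other at 2 of 30 bases, whereas the most distant pair differed at 23. Over the whole coding sequence Ces1b and Ces1c were the most alike pair, with 90.9% identity over 1665 aligned bases. Ces1d and Ces1g followed with 81.6% and Ces1d and Ces1e with 80.4%, and the least alike pair was Ces1b and Ces1f with 72.1%.

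Such likeness bears on how reads of 50 bases can be assigned. Of all 50-base words of the most used transcript, 13.4% in Ces1c and 10.8% in Ces1b also occurred in another Ces1 gene, and most of those of Ces1b (9.92% of its words) were shared with Ces1c. The share was 3.21% in Ces1e, 1.67% in Ces1g, 1.28% in Ces1d and 0.533% in Ces1f. Among protein-coding transcripts, the only ones searched, 0 words of any member occurred outside the Ces1 genes. RSEM splits ambiguous fragments between genes by an estimate. The estimated count differed from a whole number by more than 0.001 in 55 of 55 mice for Ces1b and 54 for Ces1c. It did so in 38 mice for Ces1e, 18 for Ces1d, 16 for Ces1f and 9 for Ces1g. The levels of Ces1b and Ces1c are therefore the least certain of the 6, since part of one could have been counted to the other.

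The promoters of 4 of the 6 members were matched in RefSeq (GRCm38.p6), and those of Ces1d and Ces1f were not among the sequences used. Those of Ces1b, Ces1c and Ces1g are shown because their genes had the highest and the most variable levels and formed the pairs described below. Each is a window of 300 bases that ends 50 bases after the transcription start, on the minus strand, and the capitals mark TTATGTAA, the core of a site known for proline and acidic-rich bZIP factors and C/EBP factors of the liver.
Ces1b, chr8:93079891-93080190: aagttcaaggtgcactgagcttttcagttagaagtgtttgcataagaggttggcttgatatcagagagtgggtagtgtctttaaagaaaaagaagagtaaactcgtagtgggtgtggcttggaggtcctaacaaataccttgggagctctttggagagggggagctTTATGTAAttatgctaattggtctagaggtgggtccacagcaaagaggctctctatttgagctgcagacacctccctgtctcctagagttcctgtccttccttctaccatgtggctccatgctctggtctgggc
Ces1c, chr8:93131234-93131533: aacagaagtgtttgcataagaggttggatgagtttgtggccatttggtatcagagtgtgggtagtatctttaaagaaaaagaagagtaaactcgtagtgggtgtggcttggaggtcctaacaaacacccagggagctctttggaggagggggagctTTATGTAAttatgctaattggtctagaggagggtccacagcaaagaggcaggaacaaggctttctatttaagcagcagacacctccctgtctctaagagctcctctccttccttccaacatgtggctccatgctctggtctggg
Ces1g, chr8:93337160-93337459: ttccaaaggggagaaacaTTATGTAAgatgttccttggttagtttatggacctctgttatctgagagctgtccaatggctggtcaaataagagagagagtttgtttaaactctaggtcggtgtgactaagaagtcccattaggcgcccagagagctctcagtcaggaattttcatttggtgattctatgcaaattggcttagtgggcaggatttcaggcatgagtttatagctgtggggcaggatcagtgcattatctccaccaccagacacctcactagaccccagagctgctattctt

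The promoters of Ces1b and Ces1c were 92.7% identical over 273 aligned bases. RefSeq holds a second start of Ces1b, whose window is 95.4% identical to that of Ces1c over 197 aligned bases and has TTATGTAA 7 bases before the start. In contrast, Ces1g was 59.8% identical to Ces1b and 62.6% to Ces1c. The letters TTATGTAA were found in each of the 4 matched promoters, 84 bases before the start shown for Ces1b, 94 in Ces1c, 81 in Ces1e and 232 in Ces1g. With both strands searched, 0.938% of 32851 promoters of the same length held them, but the motif was chosen after these sequences had been seen and the matches are a description. On either strand, ATGCAAAT and TATAAA were found in Ces1g and in none of the other 3, and CCAAT in Ces1b, Ces1c and Ces1g. Of all promoters 1.74%, 13.6% and 37.4% held them. The TATAAA of Ces1g and the CCAAT of Ces1b and Ces1c lie on the strand opposite to the one shown.

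The libraries held 20.5 to 34.0 M estimated fragments (median 27.7 M), and the 20 most expressed genes took 25.0 to 39.6% of them. Hepatocyte markers (Alb, Apoa1, Ttr, Tat and Cps1) were present in every mouse with a summed level of 14697 to 63626 FPKM, while 4 leukocyte markers summed to at most 7.04 FPKM and 4 cholangiocyte markers to at most 10.2 FPKM. Most of the hepatocyte sum is Alb, at 31170 FPKM in the median mouse, against 543.3 for Tat and 493.6 for Cps1. The 4 exocrine pancreas markers summed to 307.6 FPKM in a mouse of IL-3575, against 0.41 in the median mouse, and no Ces1 gene was called in that line. By the rank correlation of whole profiles, 42 of the 47 mice with a line mate were closest to that line mate. The exceptions were IL-2146 replicate 2 and 4 of the 5 mice of IL-1052 and IL-2750, where IL-1052 replicate 1 was closest to IL-2750 replicate 1 and IL-1052 replicate 2 to IL-2750 replicate 2. The lines IL-1052 and IL-2750 are therefore given by their labels only, and the counts of calls and the correlations are also given without them where they change. In whole liver, fewer cells of a type and less RNA per cell cannot be told apart.

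Ces1c was the highest of the 6 genes in 55 of 55 livers and took 56.0 to 79.4% (median 63.7%) of their summed FPKM. FPKM divides by transcript length, so the levels of different genes can be set side by side. Ces1f was second in 33 mice, Ces1d in 19 and Ces1b in 3. Ces1g was the lowest in 35 mice, Ces1e in 19 and Ces1b in 1. The sum over the 6 genes ran from 759.6 FPKM in IL-2011 replicate 1 through a median of 2149 to 3414 FPKM in IL-521 replicate 2. The lowest counts behind a value were 129 fragments for Ces1g and 451 for Ces1b, and every other member had at least 768 fragments in each mouse.

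**Figure D1:**
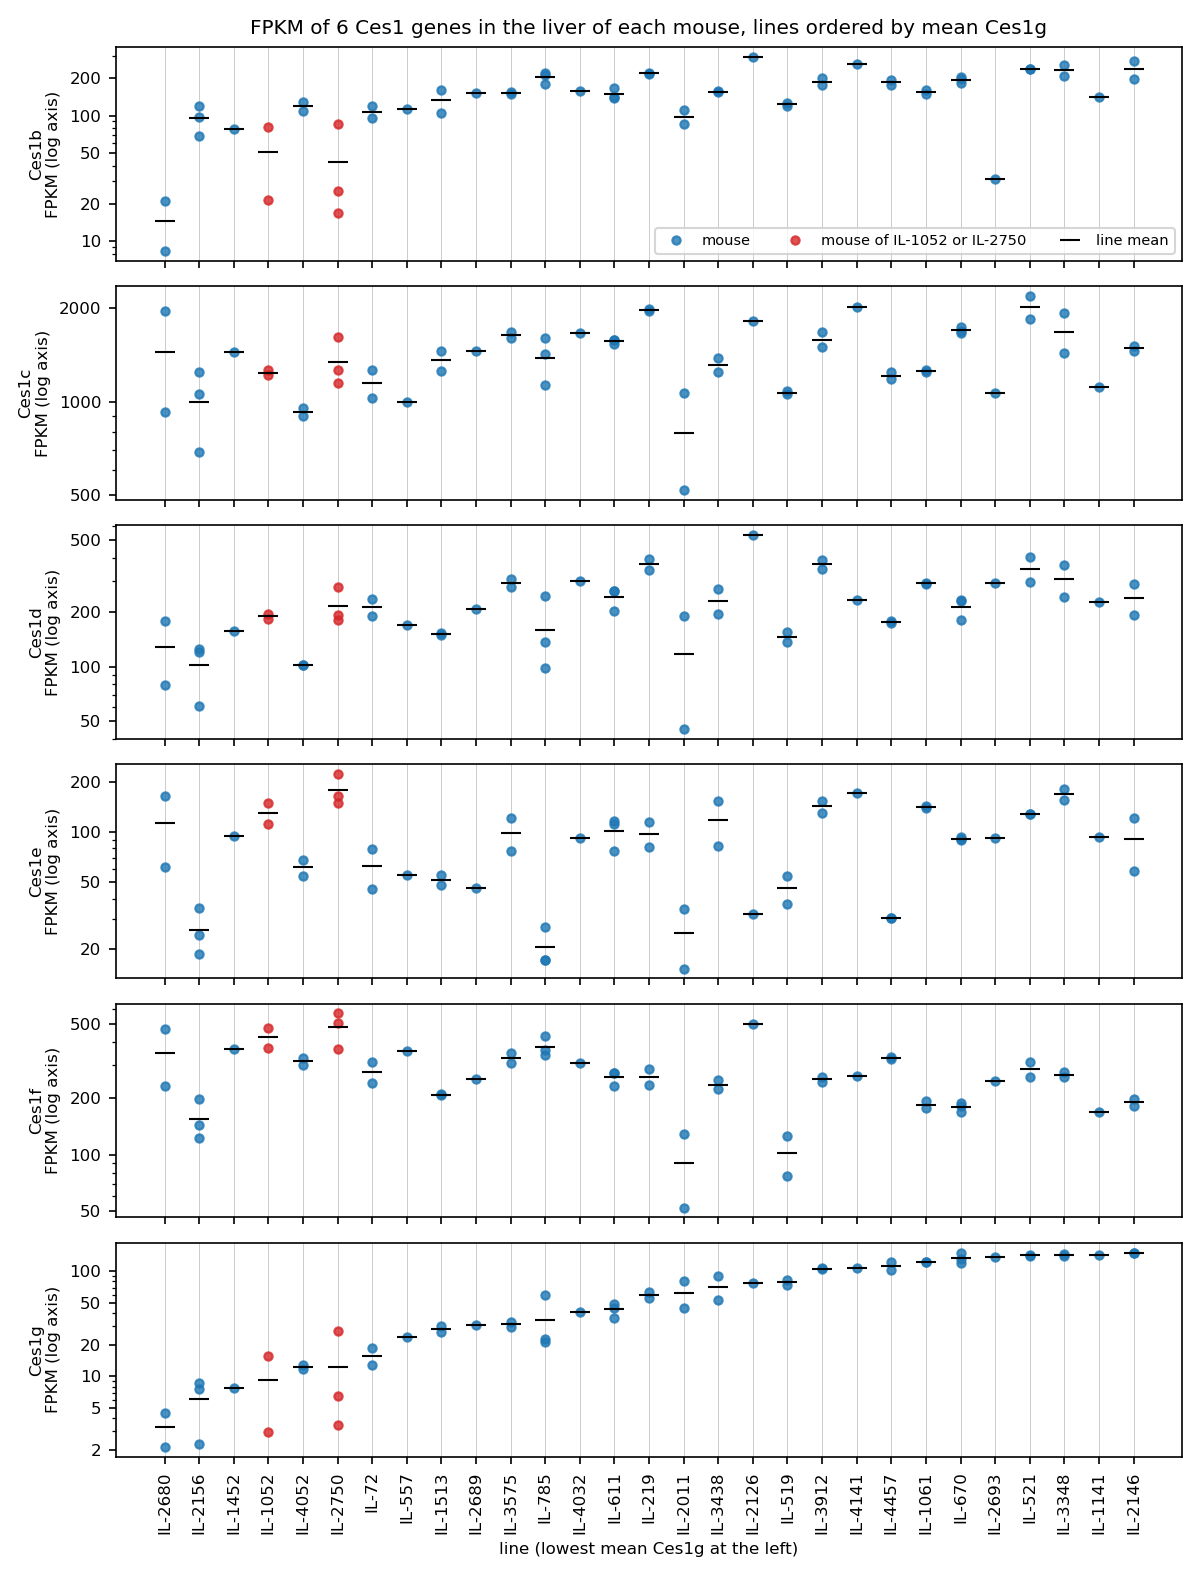
FPKM of each of the 6 Ces1 genes (log axis) in each of 55 mice, by line (29 lines). Ces1c sits highest throughout with little spread, whereas Ces1g runs from 2.14 to 150.8 FPKM and Ces1b falls below 31.4 or to it in 6 mice.

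Ces1c, the plasma esterase gene, varied least. Its level was lowest at 517.7 FPKM in IL-2011 replicate 1, 1424 in the median mouse and highest at 2195 in IL-521 replicate 2. Line means ran from 792.3 ± 388.4 FPKM in IL-2011 (SD, n = 2) to 2022 ± 244.6 in IL-521 (n = 2), a 2.55-fold range. The SD of log2(FPKM + 1) was 0.36 over line means and 0.28 within lines. Of the 28 gaps between neighbouring line means, 1 exceeded the SD within lines, so most neighbours cannot be put in order. Such gaps do not bear on lines farther apart in the order.

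Ces1b, the neighbour most like Ces1c in sequence, had a low tail that Ces1c lacked. Its lowest mouse held 8.37 FPKM (IL-2680 replicate 2), the median mouse 150.7 and the highest 293.5 (IL-2126). The 6 mice at or below 31.4 FPKM were both mice of IL-2680, the single mouse of IL-2693, IL-1052 replicate 2 and IL-2750 replicates 1 and 2, and the next mouse was at 68.97. In IL-2680 the gene stood at 20.86 and 8.37 FPKM while Ces1c stood at 1966 and 923.2. In IL-2693 it stood at 31.4 FPKM beside a Ces1c level of 1070. The low Ces1b values thus came with Ces1c levels inside the range of the other lines. Line means spanned 14.6 ± 8.83 FPKM in IL-2680 (n = 2) to 293.5 in IL-2126 (n = 1), a 20.1-fold range, and 2 of 28 neighbouring gaps exceeded the SD within lines (0.49).

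Ces1g varied most. The lowest mouse held 2.14 FPKM (IL-2680 replicate 2), the median mouse 49.07 and the highest 150.8 (IL-2146 replicate 1). The 3 mice of IL-2156 stood at 7.57, 8.66 and 2.28 FPKM, the single mouse of IL-1452 at 7.77 and the pair of IL-4052 at 11.7 and 12.8. At the other end IL-2146 stood at 150.8 and 149.6 FPKM, IL-521 at 142.2 ± 1.69 (n = 2), IL-3348 at 143 ± 2.60 (n = 2) and IL-670 at 120.4, 150.2 and 130.5. These lines were picked from both ends of the order of Ces1g, so the gap between their mice follows from that choice. The highest line mean was 45.4 times the lowest, the SD of log2(FPKM + 1) was 1.57 over lines against 0.62 within lines, and 1 of 28 neighbouring gaps exceeded the latter, so other neighbours in the order do not differ beyond that spread.

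Ces1d, the triacylglycerol hydrolase gene, ran from 44.92 FPKM (IL-2011 replicate 1) through 204.7 to 536.0 (IL-2126). Its highest line mean was the single mouse of IL-2126, followed by IL-3912 at 370.0 ± 31.3 FPKM (n = 2) and IL-219 at 368.3 ± 38.5 (n = 2). Its lowest were IL-4052 at 101.8 ± 0.248 (n = 2) and IL-2156 at 102.2 ± 36.5 (n = 3), a 5.27-fold range from end to end. The SD over lines was 0.61 on the log2 scale and that within lines 0.46, and 1 of 28 neighbouring gaps exceeded the latter.

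Ces1f, the second triacylglycerol hydrolase, ran from 52.03 FPKM (IL-2011 replicate 1) through 259.5 to 566.9 (IL-2750 replicate 1). Its 3 lowest line means, in IL-2011, IL-519 and IL-2156, were also among the 5 lowest of Ces1d, and IL-2011 replicate 1 was the lowest mouse for both genes. The others of those 5, IL-4052 and IL-2680, ranked 20 and 23 from the lowest for Ces1f, at 315.1 ± 19.8 and 349.1 ± 166.7 FPKM (n = 2 each). The highest line means were 495.5 FPKM in IL-2126 (n = 1) and 479.6 ± 102.1 in IL-2750 (n = 3), and the range was 5.49-fold. The SD was 0.59 over lines and 0.30 within lines, and again 1 of 28 gaps exceeded the latter.

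Ces1e, the egasyn gene, ran from 15.25 FPKM (IL-2011 replicate 1) through 89.18 to 221.8 (IL-2750 replicate 1). The 3 mice of IL-785 stood at 17.17, 26.93 and 17.28 FPKM, and both mice of IL-4457 at 30.8 and 30.7. The same IL-785 mice held 340.4, 429.6 and 359.6 FPKM of the next gene, Ces1f, above its median. Line means ran from 20.5 ± 5.60 FPKM in IL-785 (n = 3) to 178.2 ± 38.5 in IL-2750 (n = 3), an 8.71-fold range, with an SD of 0.88 over lines, 0.42 within lines and 2 of 28 gaps above the latter. In the livers of IL-785 low Ces1e thus stood beside high Ces1f. By contrast IL-2011 and IL-2156, the next lowest lines for Ces1e, ranked 1 and 3 from the lowest for Ces1f.

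The share of variance between lines (the intraclass correlation of rank-based normal scores) was 0.873 for Ces1b, 0.864 for Ces1g, 0.824 for Ces1f, 0.765 for Ces1e, 0.698 for Ces1d and 0.596 for Ces1c. The median of 5949 expressed and variable genes was 0.592. Ces1b, Ces1g and Ces1f thus stood at percentiles 98.7, 98.4 and 96.1 of those genes, and Ces1c at 50.9. Without IL-1052 and IL-2750 the values were 0.865 for Ces1b, 0.905 for Ces1g, 0.779 for Ces1f, 0.750 for Ces1e, 0.699 for Ces1d and 0.608 for Ces1c, beside a median of 0.666 over those genes.

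The first comparison asked whether a gene's level differed among the 21 lines with at least 2 mice. By edgeR's quasi-likelihood test with Benjamini-Hochberg adjustment over 15285 genes, 88.5% of all tested genes were called, and so were 6 of 6 Ces1 genes, which is close to that background. The edgeR adjusted p was 5.43e-08 for Ces1e, 7.03e-08 for Ces1f, 1.58e-07 for Ces1g, 9.55e-05 for Ces1b, 0.000786 for Ces1d and 0.00349 for Ces1c. Each stayed called without IL-1052 and IL-2750, with edgeR adjusted p from 1.04e-10 (Ces1g) to 0.00236 (Ces1c).

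The second comparison set each line against the mean of the other lines, for 126 pairs of a Ces1 gene and a line. edgeR called 21 pairs higher (16.7%) and 19 lower (15.1%), where the background over all genes was 10.9% higher and 7.18% lower. Ces1g had 7 lines higher and 5 lower, Ces1e 5 and 4, Ces1f 4 and 3, Ces1d 2 and 3, Ces1c 2 and 2, and Ces1b 1 and 2. These counts depend on IL-1052 and IL-2750, above all for Ces1b. In the fit without those lines edgeR called Ces1b higher in 7 lines (IL-2146, IL-219, IL-3348, IL-4457, IL-521, IL-670 and IL-785) and lower in 3 (IL-2011, IL-2156 and IL-2680), Ces1g in 8 and 5, Ces1e in 4 and 4, Ces1f in 3 and 3, Ces1c in 2 and 2, and Ces1d in 2 and 1. Over the 114 pairs of that fit 22.8% were higher and 15.8% lower, where the background was 12.6% and 8.63%. With all 21 lines, at least 1 member was called in 16 of the 21 lines, at least 3 in 6 lines, and members in both directions in 4 lines. These counts by line have no share over all genes beside them and are a description. Of the 40 pairs, 13 were called again whichever single mouse was left out and under each other setting that held the line. For 3 of them, in IL-1052 and IL-2750, these are 5 settings in place of 6, since the fit without those lines has no value for them. Those 13 pairs are 1 of Ces1b, 3 of Ces1e, 5 of Ces1f and 4 of Ces1g, and none of Ces1c or Ces1d.

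**Figure D2:**
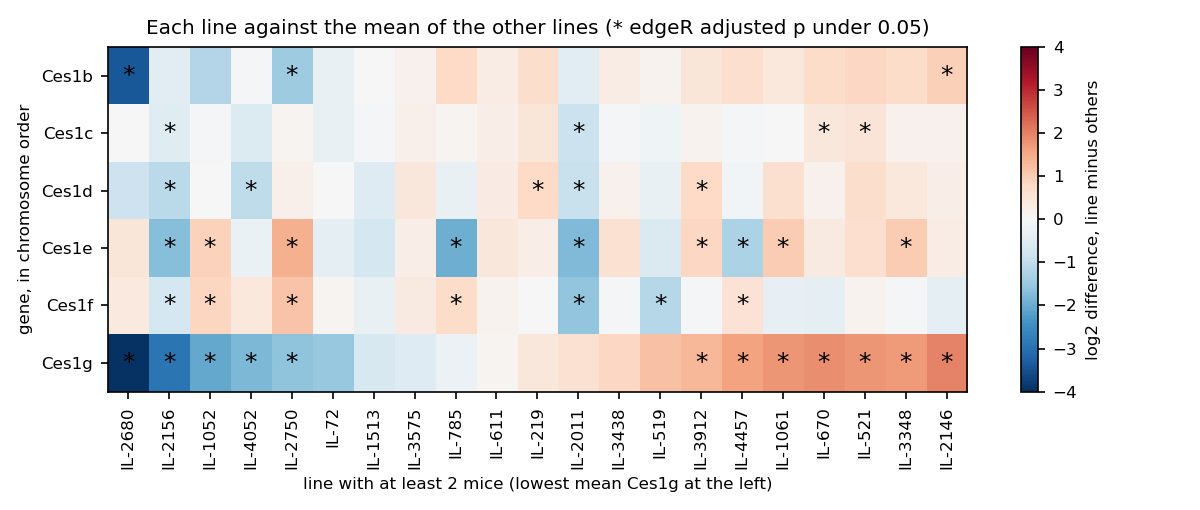
Log2 difference of each of 21 lines from the mean of the other lines, by edgeR, for the 6 Ces1 genes, with called pairs marked. IL-2680 is lowest for Ces1b and Ces1g, IL-785 is low for Ces1e and high for Ces1f, and Ces1c stays near 0 in most lines.

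IL-2680 combined the lowest Ces1b and Ces1g with a Ces1c level like that of other lines. On the log2 scale Ces1b differed by -3.39 from the other lines (SE 0.51, edgeR adjusted p = 1.56e-05) and Ces1g differed by -3.94 (SE 0.69, edgeR adjusted p = 0.000112), whereas Ces1c differed by -0.02 (SE 0.19) and was not called. Its pair of mice did not stand at one level: replicate 2 was lower than replicate 1 for each of the 6 genes, with 231.3 against 467 FPKM for Ces1f and 61.78 against 163.3 for Ces1e. Replicate 2 also had the lower hepatocyte marker sum, 24933 against 59197 FPKM. The 4 Kupffer cell markers summed to 134.4 and 164.8 FPKM in this line, above the median mouse of 53.52, and the part of these marker differences in the gene levels was not tested. Both calls held without either mouse.

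IL-785 and IL-4457 moved the neighbours Ces1e and Ces1f in opposite directions. In IL-785 Ces1e differed by -1.94 (SE 0.28, edgeR adjusted p = 6.73e-06) and Ces1f by 0.75 (SE 0.15, edgeR adjusted p = 0.000317). In IL-4457 Ces1e differed by -1.26, a call lost without replicate 2, Ces1f by 0.56, a call lost without either mouse, and Ces1g was called higher at 123.1 and 102.4 FPKM, a call lost without replicate 1. Ces1e and Ces1f lie 26.6 kb apart.

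IL-1052 and IL-2750, the lines whose mice intermix, are given here by label. In IL-2750 Ces1e differed by 1.43 (SE 0.20, edgeR adjusted p = 1.46e-05) and Ces1f by 1.13 (SE 0.14, edgeR adjusted p = 1.46e-06), while Ces1g differed by -1.61 and Ces1b by -1.42, both lost without replicate 1 or replicate 2. Without replicate 3 they were larger, -3.08 for Ces1g and -2.61 for Ces1b, and both were called. In IL-1052 Ces1f differed by 0.87 (SE 0.17, edgeR adjusted p = 0.00179), while the Ces1e difference of 0.92 (edgeR adjusted p = 0.035) was lost without replicate 1, at 0.50, and the Ces1g difference of -2.05 without replicate 2, at -1.25. Without replicate 1 the latter was -3.99. With at least 10 counts in every mouse required, both calls were lost. The mice did not follow the labels for these genes. IL-1052 replicate 2 held 21.42 FPKM of Ces1b and 2.99 of Ces1g, near IL-2750 replicate 2 with 16.83 and 3.45, whereas IL-1052 replicate 1 held 81.8 and 15.6, near IL-2750 replicate 3 with 86.23 and 26.81.

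IL-2156 and IL-2011 were low for most members. Over all genes and lines 7.18% of pairs were lower, but the share of all genes called lower in each of these lines is not given. Whether their counts are particular to the Ces1 genes was therefore not tested. In IL-2156 5 of the 6 genes were called lower, led by Ces1g at -2.91 (SE 0.52, edgeR adjusted p = 8.21e-05) and Ces1e at -1.69 (SE 0.28, edgeR adjusted p = 3.07e-05). Those calls and that of Ces1f at -0.71 held without any single mouse, whereas Ces1c was lost without replicate 1 or replicate 2 and Ces1d without replicate 3. Ces1b was called lower there in the fit without IL-1052 and IL-2750 (-0.57, edgeR adjusted p = 0.00721) and not with them (-0.45, edgeR adjusted p = 0.344). In IL-2011 4 genes were called lower, of which Ces1f at -1.57 (SE 0.22, edgeR adjusted p = 5.33e-06) held without either mouse. The other calls there, Ces1c at -0.85, Ces1d at -0.89 and Ces1e at -1.78, were each lost without replicate 1, which was lower than replicate 2 for each of the 6 genes, and that of Ces1d was kept in only 12 of 47 fits without 1 mouse. Without IL-1052 and IL-2750 Ces1b was also called lower in IL-2011 (-0.56, edgeR adjusted p = 0.0345), and the Ces1d call was lost (edgeR adjusted p = 0.0552). Hepatocyte marker sums were 14697 to 30194 FPKM in IL-2156 and 27017 to 37290 in IL-2011, below the median mouse of 44116. Kupffer cell markers summed to 54.49, 113.5 and 232.2 FPKM in the mice of IL-2156 from lowest to highest, and to 45.43 and 58.16 in those of IL-2011. The part of these markers in the differences was not tested.

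Ces1g was called higher in 7 lines. IL-2146 differed by 1.98 (SE 0.38, edgeR adjusted p = 0.000109) and IL-670 by 1.87 (SE 0.33, edgeR adjusted p = 9.77e-05), and both held without any single mouse. In IL-2146 the 4 stellate cell markers summed to 11.1 and 11.81 FPKM, the low end of all mice, and their part was not tested. The calls of IL-1061, IL-3348, IL-3912, IL-4457 and IL-521 were each lost when 1 of their own mice, or either, was left out, with differences that stayed between 1.72 and 1.86 in IL-1061, 1.67 and 1.82 in IL-3348, 1.27 and 1.40 in IL-3912, 1.48 and 1.74 in IL-4457 and 1.73 and 1.86 in IL-521 over all fits without 1 mouse. In IL-2146 Ces1b was also higher, by 0.95, a call lost without replicate 1. With all lines in the fit, Ces1f alone was called in IL-519, at -1.14, a call lost without replicate 1. In the fit without IL-1052 and IL-2750 Ces1g was also called higher in IL-519 (0.97, edgeR adjusted p = 0.0112). It was called lower there in IL-72 (-1.70, edgeR adjusted p = 0.000916) and IL-1513 (-0.86, edgeR adjusted p = 0.0443).

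The third comparison asked how far the members rose and fell together over the 29 line means. Spearman's rho was computed for the 15 pairs on line means of log2(FPKM + 1), with a two-sided permutation test of 100000 permutations and adjustment over the 91689 relations of the members with all tested genes. Of these relations 0.0% passed the adjusted threshold, and so did 0 of the 15 pairs. The smallest p that 100000 permutations can give is 1e-05, and relations at it had an adjusted p of 0.115. No relation could therefore pass here, and the 0 does not show an absence of correlation. At an unadjusted permutation p under 0.05, 8 of 15 pairs passed, 7 positive and 1 negative, where 7.73% of all relations did (5.47% positive and 2.26% negative). The median rho was 0.31 over the 15 pairs, 0.53 over the 5 pairs of neighbours and 0.28 over the other 10 pairs.

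The most alike pair was Ces1b and Ces1c, with rho 0.727 (permutation p = 3e-05, adjusted p = 0.153). Pearson's r was lower, at 0.444 (permutation p = 0.0157), and 0.539 without IL-2680 and IL-2693, the lines farthest from the median of Ces1b. This pair also shares the most sequence, and how far shared fragments bear on rho was not tested. Ces1c and Ces1d followed with rho 0.717 (permutation p = 4e-05, adjusted p = 0.16), with r 0.728 (permutation p = 3e-05) and 0.652 without 2 lines. Ces1b and Ces1g, which do not adjoin, had rho 0.635 (permutation p = 0.00037, adjusted p = 0.32), with r 0.648 (permutation p = 0.00021) and 0.766 without IL-2680 and IL-2693. IL-2693 combined low Ces1b (31.4 FPKM) with high Ces1g (138), and without IL-1052 and IL-2750, which were low for both genes, rho was 0.579 (permutation p = 0.00197).

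Ces1d had a positive rho with Ces1b (0.610), Ces1g (0.560) and Ces1e (0.526), and Ces1c with Ces1e (0.426), each at an unadjusted permutation p under 0.05 and none after adjustment. The negative pair was Ces1f and Ces1g, next to each other in the array, with rho -0.450 (permutation p = 0.0155, adjusted p = 0.548). Its r was -0.351 (permutation p = 0.0618) and -0.382 without 2 lines. Without IL-1052 and IL-2750, which combine high Ces1f with low Ces1g, rho was -0.377 (permutation p = 0.0531). The triacylglycerol hydrolase genes Ces1d and Ces1f had a rho of 0.0995 (permutation p = 0.605) and an r of 0.35 (permutation p = 0.0624), which was 0.0481 without IL-2011 and IL-2126.

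**Figure D3:**
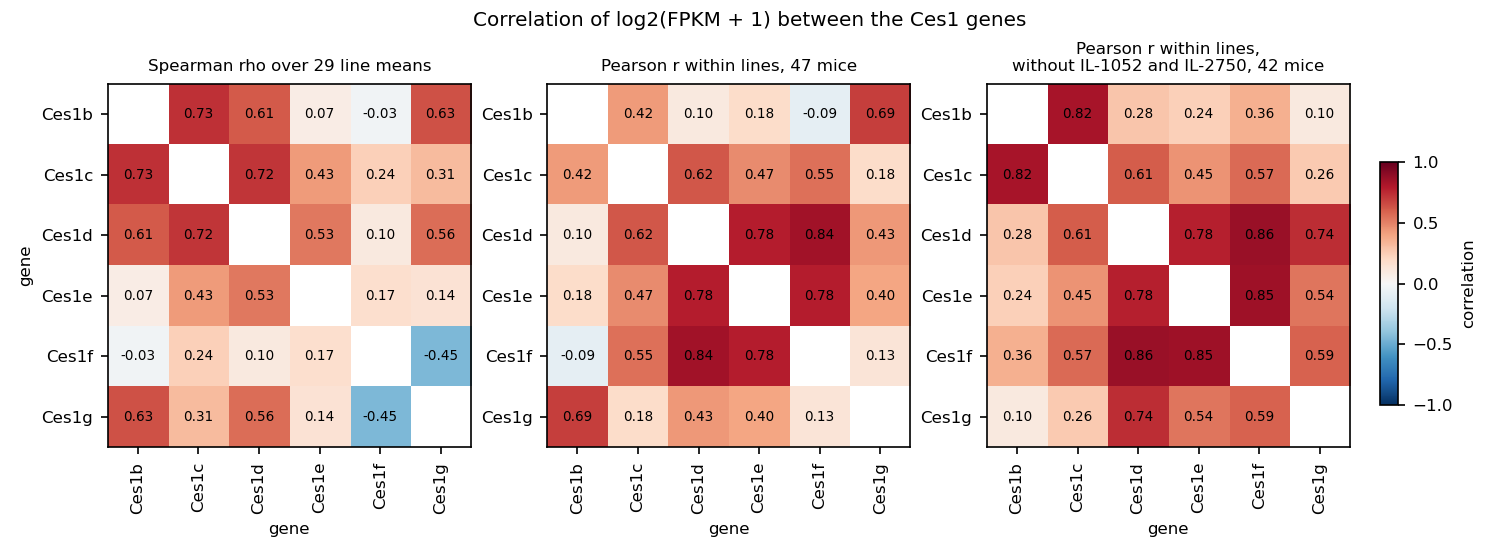
Spearman's rho over 29 line means beside the correlation of deviations within lines (47 mice) for the 15 pairs of Ces1 genes. Ces1b with Ces1c is highest over lines at 0.727, whereas Ces1d with Ces1f is 0.0995 over lines and 0.84 within lines.

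Within lines the pairs were ordered otherwise. Each mouse's deviation from its line mean was correlated over 47 mice, a description without a test because mice of a line share that mean. Ces1d and Ces1f had the highest r, 0.84, followed by Ces1d with Ces1e and Ces1e with Ces1f, both 0.782, while Ces1b and Ces1f had -0.088. For Ces1d and Ces1f the value within lines stood beside a rho of 0.0995 over lines. Without IL-2011 and IL-2680, the lines whose mice differed most, r for Ces1d and Ces1f was 0.668, for Ces1d and Ces1e 0.690 and for Ces1e and Ces1f 0.656, but that for Ces1c and Ces1d fell from 0.621 to 0.225 and that for Ces1c and Ces1f from 0.55 to -0.0142. Without IL-1052 and IL-2750, r for Ces1b and Ces1g fell from 0.690 to 0.0967, for Ces1b and Ces1c it was 0.825 in place of 0.422, and for Ces1f and Ces1g 0.592 in place of 0.129. The within-line value of Ces1b and Ces1g therefore rested on those lines.

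**Figure D4:**
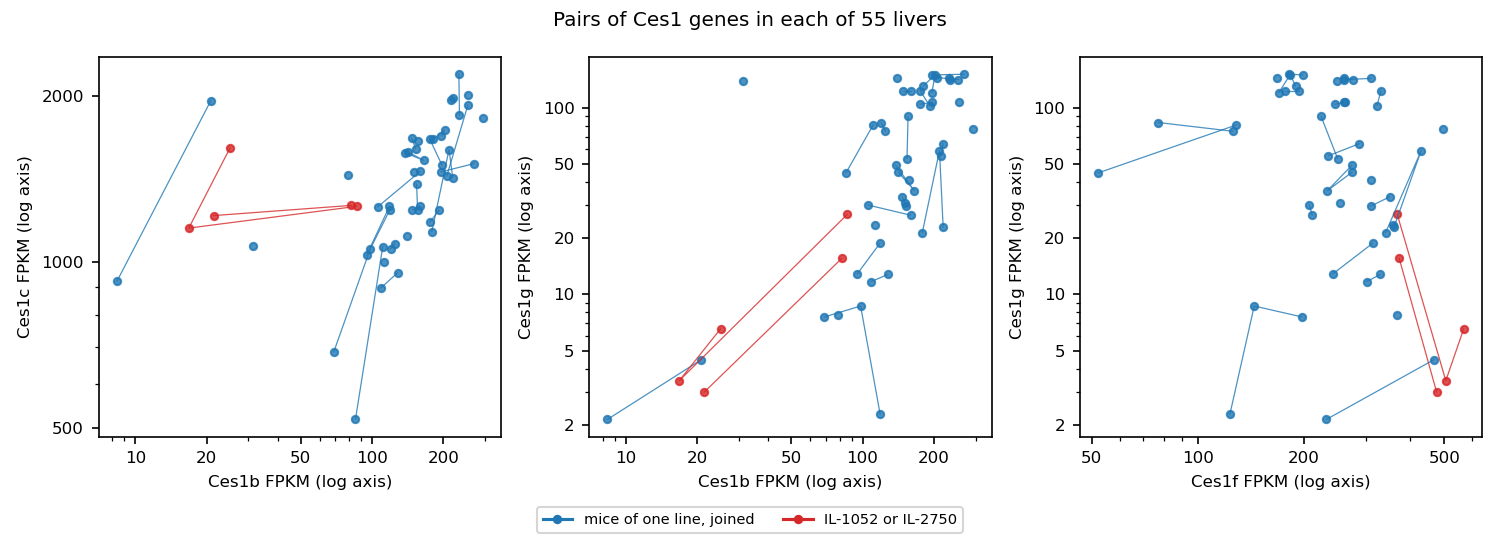
FPKM of pairs of Ces1 genes in the 55 mice (log axes), each point a mouse. The mice with the least Ces1b hold ordinary Ces1c levels, and mice with the least Ces1g include those of IL-2680, IL-2156, IL-1052 and IL-2750.

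The isoform tables gave the share of each annotated transcript in its gene. Ces1b and Ces1g have a single annotated isoform. The main isoform took a mean of 99.5% in Ces1d, 99.3% in Ces1c and 97.3% in Ces1f, so Ces1e was the member with a divided output. Its isoform ENSMUST00000034173 took 79.0% on average, 65.5% in the lowest mouse and 88.3% in the highest. ENSMUST00000176282 took 17.7% (9.39 to 33.1%) and ENSMUST00000175983 took 3.3%, and neither is in the annotation used here for exons. In IL-785, the line with the least Ces1e, the main isoform took 69.7 ± 4.26% (n = 3) and ENSMUST00000176282 28.9 ± 4.59%, whereas IL-557 (n = 1) held 87.3% and 9.63%.

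**Figure D5:**
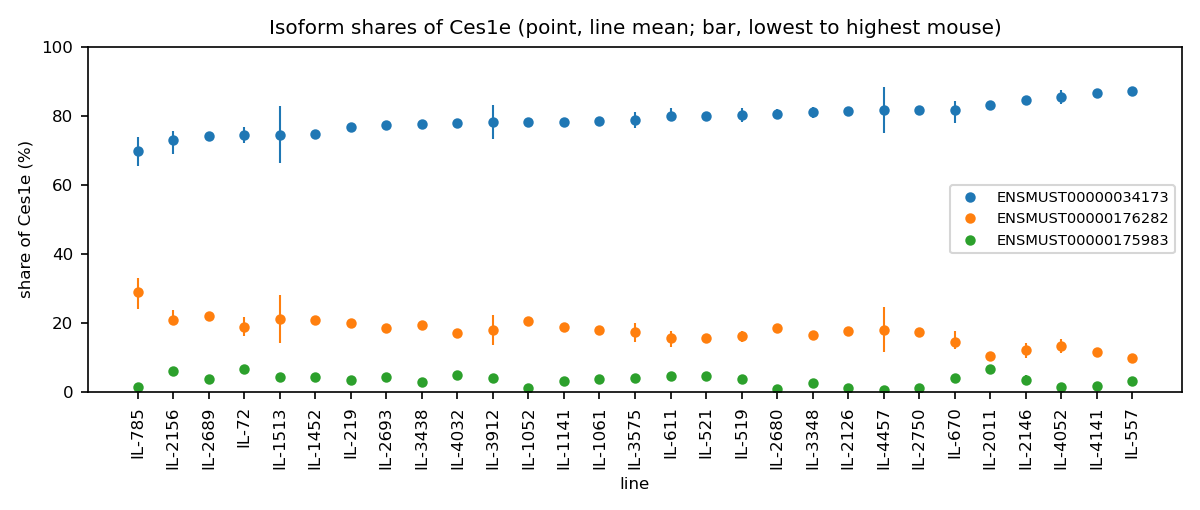
Share of Ces1e fragments (percent) given to each of its 3 annotated isoforms, by line. The main isoform ENSMUST00000034173 lies between 69.7% in IL-785 and 87.3% in IL-557.

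Whether these shares differed among the 29 lines was tested by permuting line labels, on isoform-ratio traits kept by the filters the study describes. The number kept is larger than the study's own number of such traits, so some step of its selection was not matched, and the background share holds for the traits kept here. Of 6650 such traits 25.9% were called, and Ces1e, the member kept, was not: its intraclass correlation was 0.369 (permutation p = 0.027, adjusted p = 0.082). The SD of the main share over lines, 4.09 percentage points, was close to that within lines, 4.03. For ENSMUST00000176282 these were 3.92 and 3.79, and for ENSMUST00000175983 they were 1.70 and 0.85. Line means of the latter ran from 0.36% in IL-4457 to 6.685% in IL-72. Only 1 isoform per gene was tested, here the main one, so the result does not cover the others. When traits with at least 6 levels in place of 12 were kept, ENSMUST00000034178, the main isoform of Ces1f, entered with an intraclass correlation of 0.761 (permutation p = 5e-05, adjusted p = 0.00128), over shares of 95.4 ± 0.382% in IL-2680 (n = 2) to 99.7% in IL-2126 (n = 1).

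Among the other carboxylesterases, 13 of 14 listed symbols were found, 9 genes were tested and 9 were called among lines, where 88.5% of all tested genes were. Ces3a (976 FPKM on average), Ces3b (242 FPKM), Ces2a (153 FPKM) and Ces2e (77.3 FPKM) were the most expressed. At an unadjusted permutation p under 0.05, 9 of their 54 relations with the members were positive and 3 negative (22.2%, against 7.73% of all relations of the members), and 0 passed adjustment. Ces2a, which hydrolyses acylglycerols and drug esters, had rho 0.727 with Ces1d (permutation p = 2e-05) and 0.641 with Ces1e (permutation p = 0.00028). Ces3a had rho -0.229 with Ces1d and 0.187 with Ces1e.

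Of 16 genes of lipid hydrolysis and lipoprotein assembly, 14 were called among lines (87.5%, close to the 88.5% of all genes), the most expressed being Apob (714 FPKM on average), Aadac (307), Plin2 (174) and Dgat2 (167.5 FPKM). Of their 96 relations with members, 12 were positive at an unadjusted permutation p under 0.05 and 0 negative (12.5%, against 7.73% of all relations). Soat2, which esterifies cholesterol for lipoprotein, had rho 0.724 with Ces1d (permutation p = 1e-05, the smallest 100000 permutations can give) and 0.697 with Ces1c. The adjusted p for Soat2 with Ces1d was 0.115. Of 14 nuclear receptors and factors, 13 were called among lines, the most expressed being Hnf4a (114 FPKM on average), Nr1i3 (41.96), Nr1h4 (40.5) and Srebf1 (38.3 FPKM). In this list 4 of 84 relations were positive and 2 negative at that threshold (7.14%), close to the background. Nr1i3, the constitutive androstane receptor that controls many drug-metabolising genes, ranged from 13.8 FPKM in IL-519 to 104 FPKM in IL-4032 and had rho between -0.320 (Ces1g) and 0.353 (Ces1f) with the members. Gusb, whose product egasyn binds, averaged 10.0 FPKM and had rho 0.088 with Ces1e (permutation p = 0.649).

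Genes near the cluster were mostly low. Within 500 kb, 14 gene identifiers were found and 4 were tested, Gm3272, Mmp2, Lpcat2 and Gnao1. All 4 were called among lines, where 88.5% of all tested genes were. At an unadjusted permutation p under 0.05, 2 of their 24 relations with the members were positive and 1 negative. That is 12.5%, against 7.73% of all relations, and 0 passed adjustment. Mean levels were at most 0.539 FPKM for Mmp2, Lpcat2 and Gnao1. Gm3272 was at 0.02 FPKM in the median mouse and 295.4 in the highest. Its highest line mean was 148.6 FPKM in IL-4052 (n = 2), and the spread between those mice is not given here.

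The genes most like each member over the 29 line means, by the absolute rho, were taken from all tested genes outside the cluster. Ces1b was closest to Fxyd1 (rho 0.723), Itpkc (0.699) and Serpinc1 (0.686). Ces1c was closest to Park7 (0.752), Serpinc1 (0.749) and Proc (0.727). Serpinc1 and Proc encode antithrombin and protein C, plasma proteins made by hepatocytes. Ces1d was closest to Inmt (0.785), 0610007C21Rik (0.772) and Vps11 (0.753). Ces1e was closest to 3110052M02Rik (-0.652), Ces2a (0.641) and Csad (0.639). Ces1f was closest to Cyp2b13 (0.709), a cytochrome P450 gene, E2f7 (0.704) and Gcsh (0.693), and Ces1g to Gss (0.753), Smoc2 (0.682) and Ap3s1-ps2 (0.665). Adjusted p for these relations lay between 0.115 and 0.309.

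Body weight, the trait of the labels closest to lipid metabolism, gave no called relation with a member. Over 29 line means rho ran from -0.217 (Ces1b) to 0.299 (Ces1e), 0 of 6 members and 0.0% of 15285 genes passed adjustment, and the smallest unadjusted permutation p among the members was 0.114. Pearson's r ran from -0.257 (Ces1d) to 0.111 (Ces1e), and from -0.356 to 0.136 without IL-4457 and IL-785, the lines farthest from the median weight. The summed level of the hepatocyte markers, by contrast, had rho 0.678 with Ces1b (permutation p = 0.00012), 0.530 with Ces1g (permutation p = 0.00342), 0.443 with Ces1c, 0.420 with Ces1d, 0.242 with Ces1e and 0.0990 with Ces1f, none passing adjustment over all genes. Pearson's r with the marker sum was 0.473 for Ces1b (permutation p = 0.0109) and 0.519 for Ces1g (permutation p = 0.00363), and 0.584 and 0.430 without IL-1513 and IL-2156. The share of fragments in the 20 most expressed genes had rho -0.466 with Ces1d (permutation p = 0.0119) and -0.433 with Ces1c (permutation p = 0.0196), neither passing adjustment. The Kupffer cell markers had rho between -0.214 and 0.0931 with the members. The hepatocyte marker sum is mostly Alb, and its part in the relations among Ces1b, Ces1c, Ces1d and Ces1g was not tested.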

How the data were processed

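Liver RNA selected by polyA was sequenced as stranded paired-end libraries of 50 bases per end. The authors mapped the reads with Bowtie 2 and quantified them with RSEM (version 1.2.18) against mm9 and Ensembl release 67, without a covariate. The authors deposited, per mouse, expected counts (estimated fragments per gene), TPM, FPKM and, for isoforms, the percent of the gene's fragments given to each isoform. Expected counts were rounded to whole numbers and tested with edgeR 4.0.16 (R 4.3.3; TMM, filterByExpr, quasi-likelihood F test, line as the only factor) for the 21 lines that had more than 1 mouse (47 mice), with Benjamini-Hochberg adjustment over 15285 genes and a threshold of 0.05. DESeq2 1.42.0 was an alternative. FPKM was used for levels, and line means of log2(FPKM + 1) over 29 lines for Spearman's and Pearson's correlations, with two-sided tests of 100000 permutations. Correlations without 1 mouse were tested with 20000 permutations. A line mean of log2 values understates the change of low genes slightly. Isoform percent traits followed the rules the study describes (maximum FPKM of at least 2, rounding to steps of 1/200 of the maximum or of 0.5 if larger, 12 or more levels, rank-based normal scores), though more traits were kept than the study states, and were tested one-sided by permuting line labels. Scripts were tested on simulated data with known changes.

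The named genes are the 6 members, their isoforms with a mean share of at least 5% in any line, the 3 tested genes most like each member, and the 4 most expressed genes of each list; other genes named in lists were chosen after their values were seen. Members and lists were chosen with earlier results of these data known. Replicates were numbered in accession order within a line, and no source says that mice of a line are not litter mates. The labels give no batch. Depth was 20.5 to 34.0 M estimated fragments. Gene positions come from the NCBI build 37 reference (Ensembl release 65), promoters from RefSeq (GRCm38.p6). Sequences were handled in Python 3.11.15 with numpy 2.4.6, pandas 2.3.3 and scipy 1.17.1. Other normalizations, filters, scales, sets of lines and the removal of each mouse were tried as alternatives.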

Additional observations from a re-analysis of the deposited data

How the results depend on the processing

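The 6 members stayed called among lines under each of 6 other settings and in each of 47 fits without 1 mouse (6 to 6). The count of called gene and line pairs, 40 in the fit reported, was 39 to 45 under other settings, which are RLE size factors, no filter, at least 10 counts in every mouse, all 55 mice, no IL-1052 and IL-2750, and DESeq2, and 33 to 46 without 1 mouse. Of the 40 pairs, 32 were kept in each other setting that held the line and 13 also without any single mouse. No pair of members was called correlated, and no member with body weight, under any setting or without any mouse (0 to 0). For the pairs this 0 says little, since the number of permutations limits the smallest adjusted p. The fits without 1 mouse used 20000 permutations, which limits it further. The Ces1b and Ces1f rho of -0.0320 turned to 0.0182 with TPM and 0.139 without IL-1052 and IL-2750, and lay between -0.0562 and 0.0828 without 1 mouse, at 0.0828 without IL-2680 replicate 1 and 0.00 without IL-72 replicate 1. The Ces1f rho with body weight, 0.0148, turned to -0.0678 without IL-1052 and IL-2750 and to -0.0404 and -0.00542 without IL-2680 replicate 1 and IL-4052 replicate 2, in a range of -0.0404 to 0.0478 without 1 mouse. The causes were not tested. The count of isoform traits called was 1 with at least 6 levels and 0 to 1 without 1 mouse. The log2 range of line means for Ces1d was 2.52 in all lines and 1.98 in lines with at least 2 mice, since the single mouse of IL-2126 is then absent. Without 1 mouse the range lay between 3.75 and 4.97 for Ces1b, 1.12 and 1.96 for Ces1c, 2.45 and 3.55 for Ces1d, 2.97 and 3.44 for Ces1e, 2.32 and 3.23 for Ces1f, and 4.79 and 5.59 for Ces1g.

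Limits are the 1 to 3 mice per line, the fragments, above all of Ces1b and Ces1c, that RSEM had to divide between genes, and the mice of IL-1052 and IL-2750. Reads of all lines were mapped to the same mm9 reference. How far founder differences in sequence bear on the levels was not tested. A line left with 1 mouse in a fit without its mate is assumed to vary like the other lines, and these fits kept the dispersion trend of the 47 mice. No paired analysis was possible because the labels give no replicate numbers that pair mice across lines.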
